A study of Mus musculus with 12 samples.

Results

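The genes described here encode the proteins of the cytosolic ribosome, measured by RNA-seq in the mouse cochlea directly after noise. They were taken from the count table by their mouse symbols: Rpsa, Rplp0, Rplp1, Rplp2, and every protein-coding gene named Rpl or Rps with a number and an optional suffix, with at least 10 counts in at least 4 libraries. Processed pseudogenes, the Rps6k kinases and Rps27a were left out by that rule. It gave 82 genes of 35496, of which 31 encode proteins of the small subunit and 51 proteins of the large subunit. Of these, 6 are paralogs of another member (Rpl3l, Rpl7l1, Rpl22l1, Rps27l, Rpl36al and Rpl39l) and 76 are the standard genes. All 82 were among the 19497 genes that passed the filter on low counts. FVB/NCrl mice, at postnatal day 60 and awake, were kept for 30 minutes at 70 dB SPL (ambient sound, the control), at 94 dB SPL (loud) or at 105 dB SPL (very loud), and cochlear RNA was extracted with TRIzol immediately after. Each of the 3 groups has 4 libraries, 12 in all, with 31141706 to 42317781 counts per library. No genotype other than the inbred strain is labelled, and nothing in the labels states if a library comes from a single animal or from pooled animals. The p-values therefore measure only how far these libraries scatter, which may be technical.

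A ribosome is built from 2 subunits of ribosomal RNA and protein, with a single copy of nearly every protein, so cells make the proteins in matched amounts. Their mRNAs are among the most abundant in most cells and carry a tract of pyrimidines at their start, the terminal oligopyrimidine or TOP motif, through which mTOR signalling and the protein LARP1 set how strongly they are translated. Several members also act outside the ribosome: Rpl5 and Rpl11 bind MDM2 when ribosome assembly is disturbed, and Rps6 is the classic substrate of the S6 kinases. Counts of mRNA in whole tissue do not show translation, and in such bulk samples a change in the share of a cell type cannot be told apart from a change in RNA per cell.

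At 70 dB, the levels of the 82 members differed widely. The median member had 310 CPM (its counts as parts of 1e6 of the library, scaled by the trimmed mean of M values, TMM), against 25.7 CPM for the median of 16044 protein-coding genes tested. Per kilobase of annotated exon, the highest level was that of Rplp1, a protein of the stalk that recruits elongation factors, at 849 CPM per kb. Rps3a1, a small-subunit protein, followed with 669 CPM per kb, then the stalk base Rplp0 with 554, the small-subunit gene Rps15 with 510 and the large-subunit gene Rpl36 with 505 CPM per kb. The lowest were the paralogs Rpl39l, at 0.252 CPM per kb, and Rpl36al, at 0.691, then Rpl24 at 1.20, Rps10 at 1.88 and Rpl22l1, a paralog of Rpl22, at 6.60 CPM per kb. Per kilobase of the longest transcript, the order of the highest genes changed. Rpl10 (774 CPM per kb) then followed Rplp1 (849), and Rps15 (562) and Rpl36 (505) stood below Rps4x (664) and Rpl4 (620). For several of the low genes the count itself is doubtful, because an annotated longer gene on the same strand covers part of their exons. Gm28037 covers 47.0% of the exon length of Rpl24, and Gm49383 24.5% of that of Rpl36al. RPS10-NUDT3 covers 475 of the 2311 exon bases of Rps10, and Gm45713 covers 621 of the 2114 exon bases of Rpl13a. The overlaps come from the GENCODE M21 annotation, and none of these covering genes has a row in the deposited table. If the annotation used for counting held them, reads in the shared part may have been counted for neither gene. Levels below those of the other members are therefore uncertain here. Of the 82 members, 78 were at 10 CPM or more at 70 dB.

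The gene starts are shown because the pyrimidine tract is the feature these mRNAs are known for. Promoter windows from RefSeq (GRCm38.p6) matched 63 of the 82 members by symbol. A C followed by 4 or more C or T letters began within 20 bases of the annotated start, on the sense strand, in 50 of 63 (79.4%), against 53.9% of 13539 genes tested with a window. A longer run, C followed by 7 or more C or T letters, which also counts among the shorter runs and was searched after those, was found in 31 of 63 (49.2%), against 16.9% of genes. The lines below give 40 bases before to 20 bases from the annotated start, read 5′ to 3′ along the gene, with the longest such run in capitals; the first 4 genes were higher at 94 dB and the last 3 were not called there.
Rpl28 (chr7:4792925-4792984, plus strand): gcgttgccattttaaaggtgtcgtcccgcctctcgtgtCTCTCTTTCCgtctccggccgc
Rps9 (chr7:3704001-3704060, plus strand): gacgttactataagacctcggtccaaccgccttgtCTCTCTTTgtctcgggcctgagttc
Rpl22l1 (chr3:28805468-28805527, plus strand): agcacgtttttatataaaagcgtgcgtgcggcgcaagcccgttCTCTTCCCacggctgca
Rpl7a (chr2:26910767-26910826, plus strand): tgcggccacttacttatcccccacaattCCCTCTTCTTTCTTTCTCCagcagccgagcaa
Rps6 (chr4:86857348-86857407, minus strand): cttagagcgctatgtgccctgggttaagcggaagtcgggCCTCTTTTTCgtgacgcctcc
Rps26 (chr10:128626487-128626546, minus strand): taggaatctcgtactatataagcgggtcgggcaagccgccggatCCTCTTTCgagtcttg
Rpl4 (chr9:64173347-64173406, plus strand): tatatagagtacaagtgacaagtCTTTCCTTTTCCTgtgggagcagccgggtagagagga
Runs of 8 bases or more stood in genes of both kinds, at the start in Rps6 (10 bases) as in Rpl28 (10 bases). The run of Rpl4 (13 bases) was longer than that of Rps9 (8 bases), but it ended before the annotated start, while that of Rps9 spanned it. Runs wholly before the start were counted as well. Of the 31 members with such a run, 15 were higher at 94 dB than at 70 dB. Of the 32 with a window and no such run, 12 were higher. The median log2 fold changes were 0.49 and 0.34. Of all genes tested, 13.9% were higher at 94 dB, a share that also stands beside the splits that follow. The motif CCGGAAG, searched on both strands of the 300 base window as the core bound by ETS-family factors, stood in 26 of 63 (41.3%), against 16.4% of genes. AAGATGGC, a core of YY1 sites, stood in 6 of 63 (9.52%, against 4.36%), and TATAAA in 7 of 63 (11.1%, against 9.97%). Of the 26 members with CCGGAAG 7 were higher at 94 dB, and of the 37 without it 20 were, with medians of 0.41 in both. A run of 5 or more bases whose C lay within 2 bases of the start stood in 13 of 63 (20.6%, against 9.45%), of which 6 were higher at 94 dB, against 21 of the other 50. For the 10 members with more than 1 annotated start, a match in any of their windows was counted, and these matches of letters show no binding.

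Other annotated features also set the members apart from protein-coding genes at large. Their coding sequences were short, with a median of 454.5 bases against 1383 bases, while the median GC content of the longest transcript was 50.9% against 50.0%. A gene for a small nucleolar RNA, of the class that guides modification of ribosomal RNA, lay inside 30 of the 82 members (36.6%), against 1.60% of protein-coding genes tested. The members are spread over 19 chromosomes, and chromosome 7 holds 14 of them.

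Together the 82 genes took more of the counts after noise. Their summed share was 2.64%, 2.91%, 2.55% and 2.79% in the 70 dB libraries, 2.97%, 3.10%, 3.84% and 3.95% in the 94 dB libraries, and 3.05%, 3.32%, 3.73% and 2.89% in the 105 dB libraries (replicates 1 to 4). The group means (± SD, n = 4 each) were 2.72 ± 0.158% for 70 dB, 3.47 ± 0.504% for 94 dB and 3.25 ± 0.366% for 105 dB. Every 94 dB library lay above every 70 dB library, while 105 dB replicate 4 lay below 70 dB replicate 2. That separation was lost when mitochondrially encoded and haemoglobin genes were taken out of the total: 94 dB replicate 1 then had 3.136% and 70 dB replicate 2 had 3.144%, and the group means were 2.93% for 70 dB, 3.67% for 94 dB and 3.498% for 105 dB. The ratio of small-subunit to large-subunit counts stayed between 0.674 and 0.731 in the 12 libraries, with means of 0.695 at 70 dB, 0.689 at 94 dB and 0.714 at 105 dB.

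**Figure D1:**
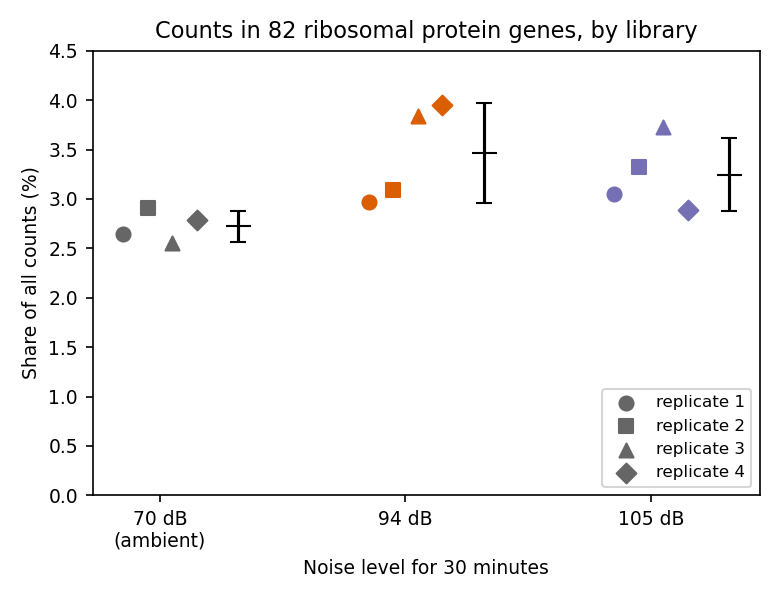
Share of all counts in the 82 ribosomal protein genes (%, y axis) in each library of the 70, 94 and 105 dB groups, a point per library, with the group mean and SD in black at the right of each group. The 94 dB libraries split into a lower pair, at 2.97% and 3.10%, and a higher pair, at 3.84% and 3.95%, and 105 dB replicate 3, at 3.73%, is the highest of its group.

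The libraries with the highest shares also stood apart in other ways. Mitochondrially encoded genes took between 5.08% and 5.68% of counts in the 70 dB libraries, between 2.68% and 3.59% in the 94 dB libraries and between 4.43% and 5.35% in the 105 dB libraries, so that every 94 dB library lay below every library of the other groups. Within 94 dB they took 2.68% and 2.73% in replicates 3 and 4, against 3.53% and 3.59% in replicates 1 and 2. Haemoglobin genes took 2.90% and 2.95% in replicates 3 and 4, against 1.75% and 2.07% in replicates 1 and 2. In 105 dB replicate 3 the haemoglobin share was 2.89%, against 2.05% to 2.34% in the others of its group, and at 70 dB it was 1.68% to 2.04%. The summed CPM of 9 erythroid markers ranged from 18378 to 22533 at 70 dB, from 19060 to 32646 at 94 dB and from 22542 to 31658 at 105 dB, with 31491 and 32646 in 94 dB replicates 3 and 4. These sums are mostly haemoglobin. At 94 dB against 70 dB, Hbb-bs and Hbb-bt were higher and 1 marker was lower, and the median log2 fold change of the 9 markers was 0.09. For 10 neutrophil markers the sums were 8270 to 10211 CPM at 70 dB, 8371 to 16110 CPM at 94 dB and 9071 to 10826 CPM at 105 dB. Of these 10, 4 were higher at 94 dB than at 70 dB and 0 lower, where 13.9% of all genes were higher and 12.2% lower. Proliferating-cell markers summed to 1258 to 1501 CPM at 70 dB, 1238 to 1518 CPM at 94 dB and 1506 to 1832 CPM at 105 dB. Each of these markers reached 1 CPM in at least 4 libraries, none was at 0, and their part in the ribosomal protein levels was not tested. Of 10 hair cell markers 8 reached 1 CPM in at least 4 libraries, with sums of 127 to 146 CPM over all libraries. All 10 spiral ganglion neuron markers reached it. At 94 dB against 70 dB, 0 hair cell markers were called, and 0 spiral ganglion neuron markers were higher and 2 lower. Of 10 bone cell markers 0 were higher and 3 lower, and of 9 stria vascularis markers 0 were higher and 2 lower. Of 10 B cell markers 1 was higher and 1 lower. The 10 Schwann cell markers summed to 5361 to 7261 CPM at 70 dB, 4610 to 5949 CPM at 94 dB and 4686 to 5589 CPM at 105 dB, with 1 higher and 2 lower at 94 dB than at 70 dB, and their part was not tested. Counts of members at 94 dB are given below with and without replicates 3 and 4. These replicates have the highest ribosomal protein shares of their group, so leaving them out lowers the members' 94 dB level by construction. It also leaves fewer libraries in the group, which by itself ends some calls.

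The first comparison asked how ribosomal protein mRNAs differed after 94 dB noise. By the quasi-likelihood test of edgeR, with p adjusted by Benjamini-Hochberg over all genes tested, 39 of the 82 members were higher at 94 dB than at 70 dB, 0 were lower and 43 were not called, at an adjusted p of 0.05. Of all genes, 26.1% passed, 13.9% as higher and 12.2% as lower. At an unadjusted p of 0.05 the lower members also numbered 0, as they did with DESeq2, and the same held at 105 dB against 70 dB. The median log2 fold change of the members was 0.42, in a range of -0.12 to 1.49, against -0.02 for all genes. In 37 members every 94 dB library lay above every 70 dB library, as in 13.0% of genes, and in 0 members did every one lie below, as in 12.3% of genes. Both subunits took part, with 14 of 31 small-subunit and 25 of 51 large-subunit genes higher. Without 94 dB replicates 3 and 4, 16 of the 82 were higher, all of them among the 39, and 0 were lower, where 5.12% of genes were called higher and 2.85% lower, and the median was 0.15. These 16 were Rpl7a, Rpl8, Rpl11, Rpl13, Rpl22l1, Rpl28, Rplp1, Rps9, Rps10, Rps13, Rps15, Rps16, Rps18, Rps19, Rps20 and Rps29.

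**Figure D2:**
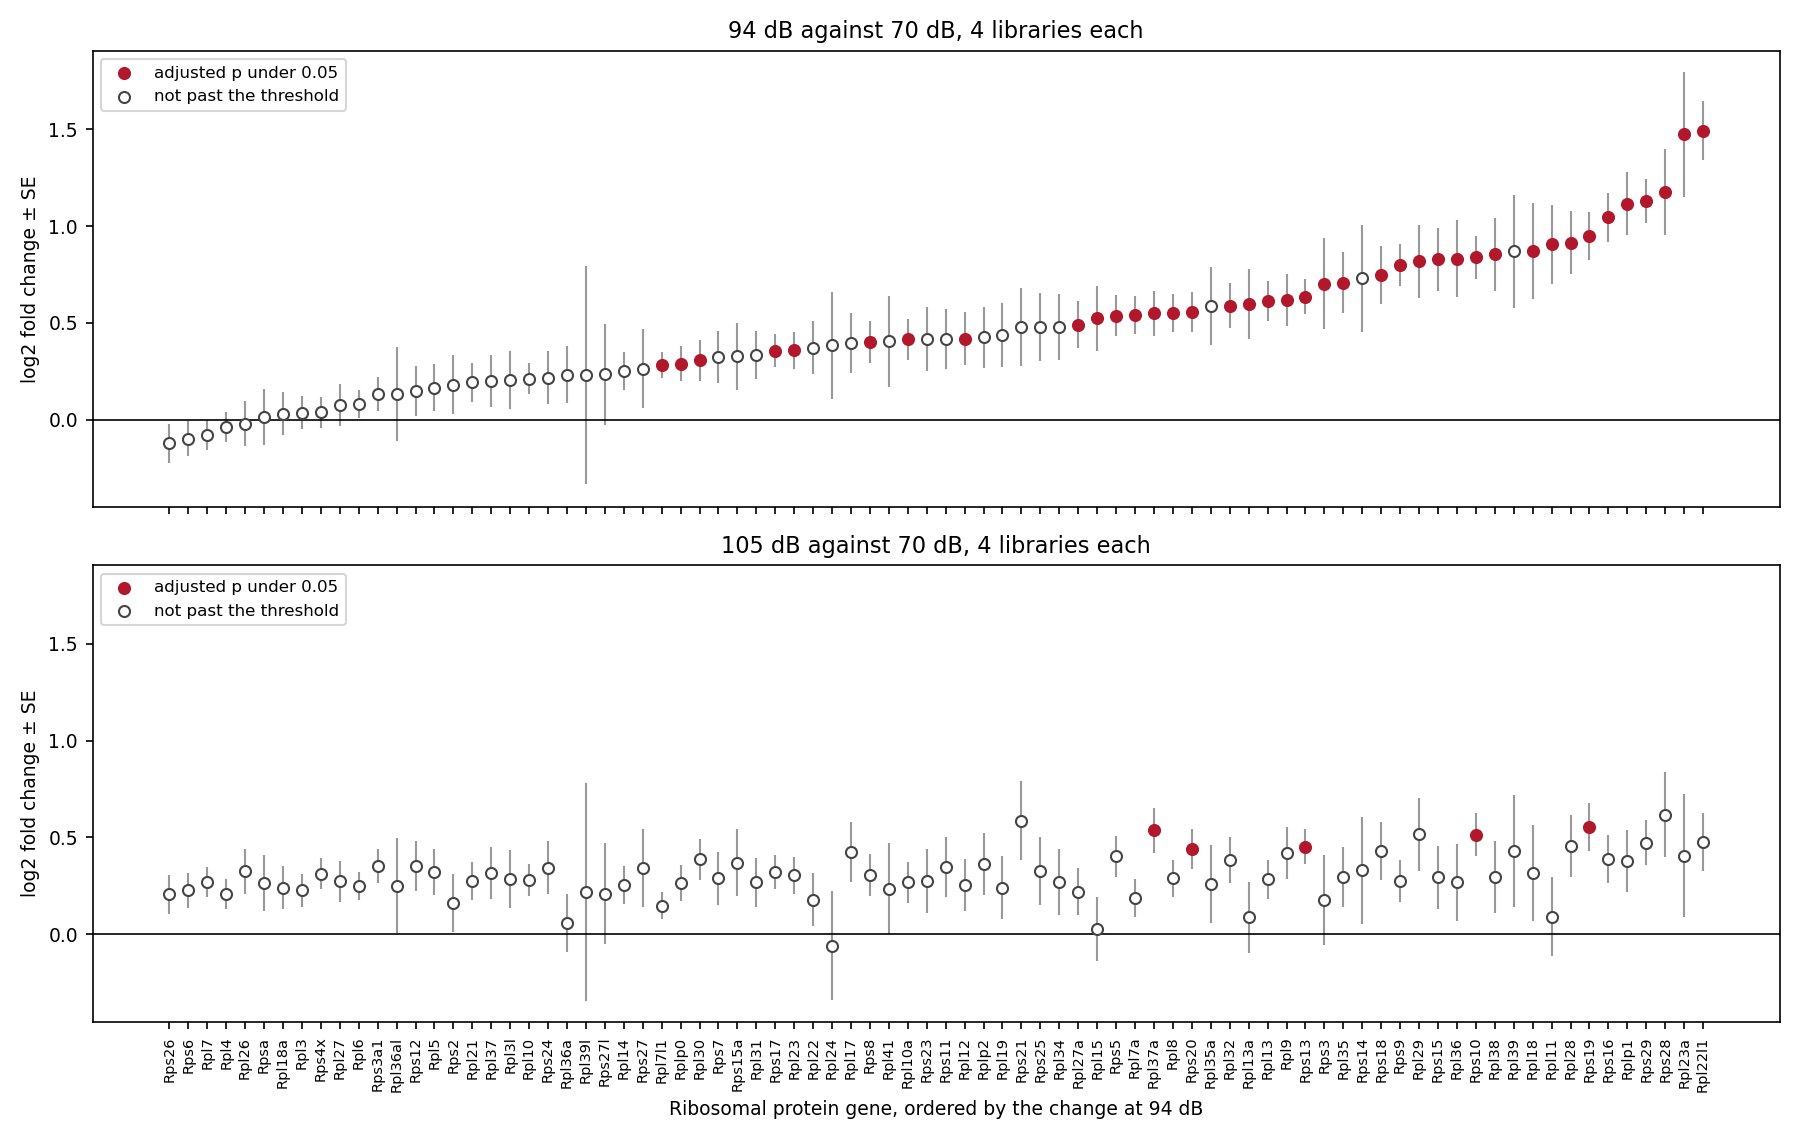
Log2 fold change with its standard error (y axis) for each of the 82 members (x axis, ordered by the change at 94 dB), at 94 dB against 70 dB above and 105 dB against 70 dB below. Filled points passed an adjusted p of 0.05, 39 of them at 94 dB and 5 at 105 dB; both rows use the same 70 dB libraries.

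The largest rise was that of Rpl22l1 (ENSMUSG00000039221; mm10 chromosome 3, 28805436 to 28807424), whose protein can take the place of Rpl22 in the large subunit. It had 28.9, 33.3, 45.5 and 40.3 CPM in the 94 dB libraries, against 12.6, 16.2, 13.2 and 10.5 CPM in the 70 dB libraries. The groups were far apart, at a 2.81-fold difference (log2 1.49, SE 0.15; adjusted p = 2.88e-05), and it remained past the threshold in every alternative tried (up to 3.48e-04). Rpl22 itself had 214, 213, 304 and 308 CPM at 94 dB, against 177, 227, 184 and 215 CPM at 70 dB, groups that overlapped, with an adjusted p of 0.0623.

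Among small-subunit genes, Rps29, Rps16 and Rps19 rose with little scatter at 70 dB. Rps29 (ENSMUSG00000034892; mm10 chromosome 12, 69157722 to 69159186), a short zinc-binding protein of the head of the subunit, had 270, 265, 309 and 292 CPM at 94 dB, against 149, 124, 114 and 132 CPM at 70 dB (log2 1.13, SE 0.11; adjusted p = 2.35e-05). Rps16 had 382, 410, 573 and 547 CPM at 94 dB, against 224, 257, 217 and 229 CPM at 70 dB (log2 1.05, SE 0.13; adjusted p = 1.20e-04). Rps19, the gene most often mutated in Diamond-Blackfan anaemia, had 277, 305, 381 and 375 CPM at 94 dB, against 173, 188, 168 and 165 CPM at 70 dB. In all 3 genes the lowest 94 dB library lay above the highest 70 dB library, and their calls held in every alternative tried.

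Another set of strong risers had 1 high library at 70 dB. Rpl23a, a protein at the exit of the tunnel through which new chains leave, had 195, 221, 247 and 290 CPM at 94 dB, against 137, 73.7, 70.2 and 61.5 CPM at 70 dB (log2 1.48, SE 0.32; adjusted p = 0.00939, and 0.106 without 94 dB replicates 3 and 4). Rps28, of the small subunit, had 183, 183, 196 and 188 CPM at 94 dB, against 122, 74.0, 71.5 and 64.0 CPM at 70 dB (log2 1.18, SE 0.22; adjusted p = 0.00391, and 0.0593 without those libraries). Rpl28 had 401, 422, 431 and 430 CPM at 94 dB, against 301, 213, 192 and 186 CPM at 70 dB (log2 0.91, SE 0.16; adjusted p = 0.00197). Replicate 1 was the highest 70 dB library in these genes, and also in Rpl29, with 57.6 CPM against 35.5 to 39.8 CPM in the other 70 dB libraries. Rps28 and Rpl28 were close to level across the 94 dB libraries. Tlcd1, on the other strand, overlaps 506 of the 847 exon bases of Rpl23a, so the count of Rpl23a is uncertain if reads were counted without strand.

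The stalk genes and the MDM2-binding pair behaved unequally. Rplp1 had 702, 727, 1180 and 1061 CPM at 94 dB, against 395, 468, 386 and 445 CPM at 70 dB (log2 1.12, SE 0.16; adjusted p = 6.14e-04). Its partner Rplp2 had 345, 361, 473 and 451 CPM at 94 dB, against 268, 327, 292 and 326 CPM at 70 dB, and the stalk base Rplp0 had 962, 1022, 1192 and 1316 CPM, against 862, 1024, 892 and 899 CPM. Rplp2 did not pass (log2 0.43; adjusted p = 0.0642) although its groups did not overlap, and Rplp0 passed (log2 0.29; adjusted p = 0.0299) although its groups did. Rpl11 rose by 0.91 on the log2 scale (SE 0.20; adjusted p = 0.00861), with 327, 347, 597 and 636 CPM at 94 dB, against 229, 277, 224 and 288 CPM at 70 dB. Rpl5, which joins the ribosome with Rpl11 and 5S RNA, had 479, 514, 605 and 655 CPM at 94 dB, against 469, 543, 490 and 508 CPM at 70 dB, and did not pass (log2 0.17; adjusted p = 0.333). Rplp0 no longer passed in 9 of 23 alternatives (up to 0.430), among them those without 94 dB replicate 3 or 4, without 70 dB replicate 1, 3 or 4, with the 8 libraries compared and after correction for GC content and length.

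**Figure D3:**
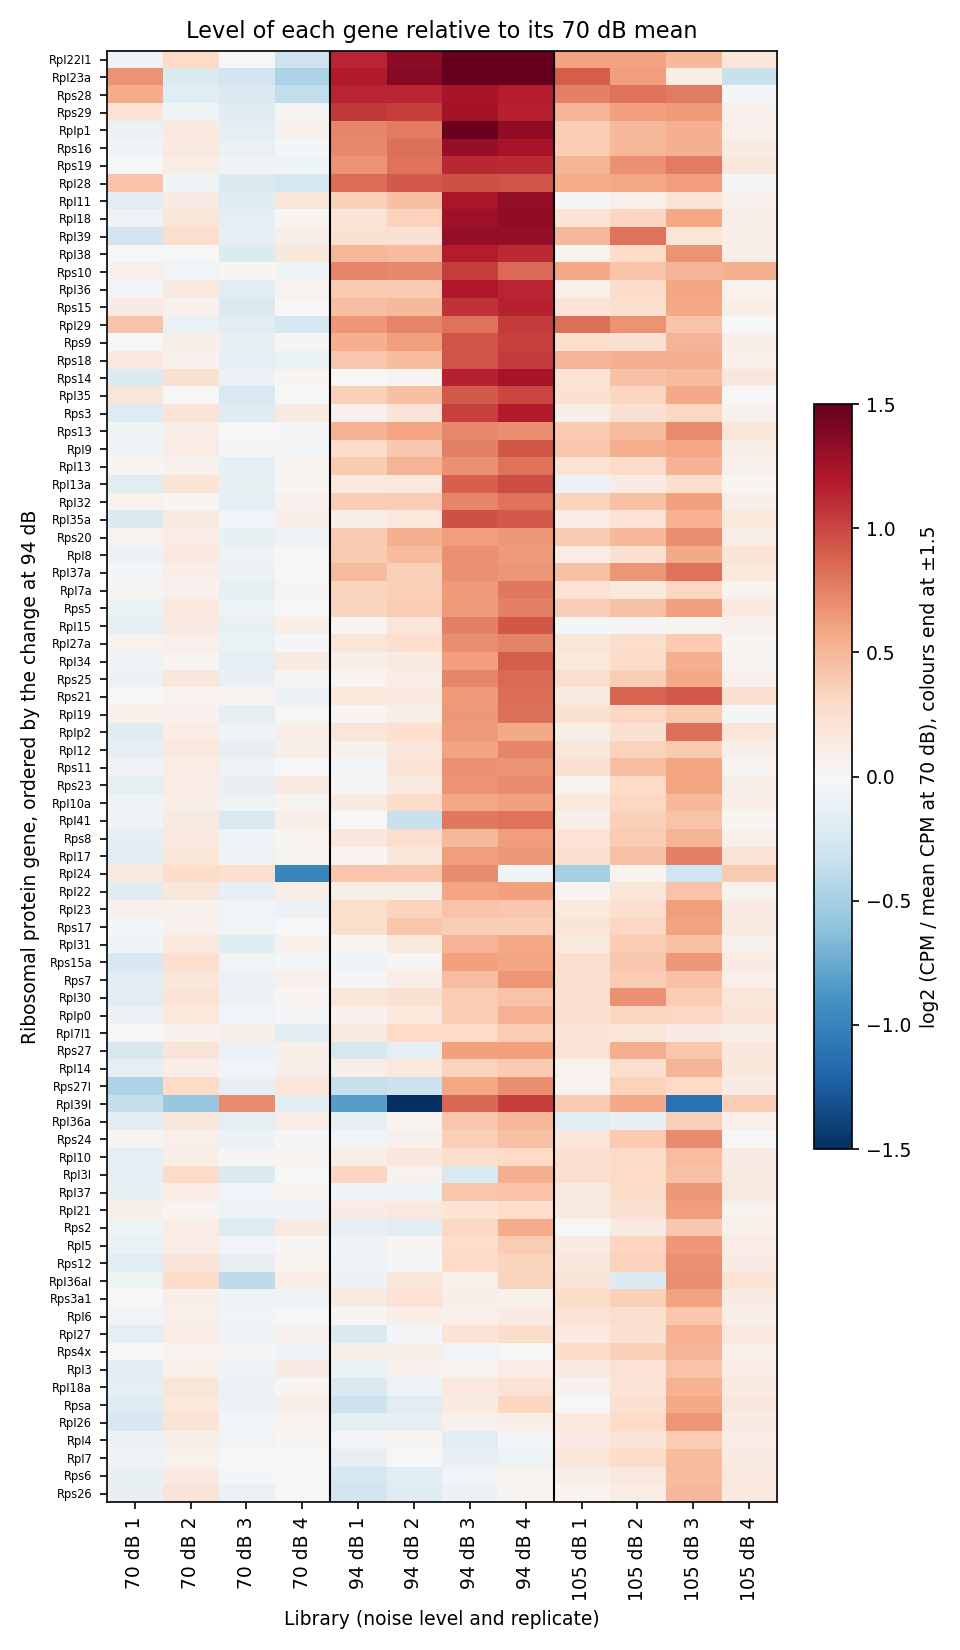
Level of each of the 82 members (rows, ordered by the change at 94 dB) in each of the 12 libraries (columns), as log2 of CPM over the gene's mean at 70 dB, with colours that end at ±1.5. Most rows are darkest red in 94 dB replicates 3 and 4, and 105 dB replicate 3 is the darkest 105 dB column.

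For many members the rise rested on 94 dB replicates 3 and 4, as the map of levels by library shows. The median member stood 0.13, 0.18, 0.63 and 0.67 above its 70 dB mean on the log2 scale in 94 dB replicates 1 to 4, and 60, 68, 76 and 79 of the 82 members lay above that mean. In the 70 dB libraries themselves 22, 75, 9 and 53 members did, so the tallies of 94 dB replicates 1 and 2 lay below that of 70 dB replicate 2. Rps14, a small-subunit gene lost in the human 5q- syndrome, had 397, 406, 879 and 932 CPM at 94 dB, against 342, 460, 371 and 403 CPM at 70 dB. Its replicates 1 and 2 lay within the 70 dB range, and it did not pass (log2 0.73; adjusted p = 0.0794). Rpl18, a large-subunit protein, had 371, 410, 779 and 813 CPM at 94 dB, against 308, 367, 292 and 329 CPM at 70 dB. That difference passed (log2 0.87; adjusted p = 0.0267), and not in 10 of 23 alternatives (up to 0.177), among them those without 94 dB replicate 3 or 4, without 70 dB replicate 1, 3 or 4, with the 8 libraries compared and with a replicate block (0.0541). Rps3, which lines the entry of the mRNA channel, had 602, 656, 1171 and 1308 CPM at 94 dB, against 502, 656, 506 and 632 CPM at 70 dB; it passed at 0.0475 and lost the call in 17 of 23 alternatives (up to 0.498), among them those without 94 dB replicate 3 or 4, any 70 dB library or any 105 dB library.

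At the other end stood members whose level at 94 dB was close to that at 70 dB. Rps6 had 483, 513, 561 and 590 CPM at 94 dB, against 532, 624, 567 and 578 CPM at 70 dB (log2 -0.10, SE 0.09; adjusted p = 0.446). Rpl3, near the peptidyl transferase centre, had 432, 485, 474 and 500 CPM at 94 dB, against 412, 488, 442 and 504 CPM at 70 dB (adjusted p = 0.799). Rpsa, the laminin receptor precursor of the small subunit, had 905, 1008, 1245 and 1410 CPM, against 991, 1268, 1066 and 1206 CPM (adjusted p = 0.959). In each the groups overlapped. Rpl4 (log2 -0.04), Rps26 (-0.12), Rps4x (0.04) and Rpl7 (-0.08), named after their values were seen except Rpl7, did not pass either. Rpl10, which completes the large subunit before it joins the small one, read 767, 813, 867 and 885 CPM at 94 dB, against 650, 765, 726 and 738 CPM at 70 dB, with an adjusted p of 0.0654.

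Of the 6 paralogs, Rpl22l1 and Rpl7l1 were higher at 94 dB and the others were not called. Rpl7l1, whose product acts in large-subunit assembly, had 81.7, 90.9, 91.1 and 96.7 CPM at 94 dB, against 74.3, 77.3, 78.5 and 66.4 CPM at 70 dB (log2 0.28; adjusted p = 0.00763, and 0.103 without 94 dB replicates 3 and 4). Rpl3l, the paralog known from striated muscle, had 48.7, 40.4, 33.2 and 56.8 CPM at 94 dB, against 35.7, 47.3, 33.7 and 38.7 CPM at 70 dB, and Rps27l, a p53 target in human cells, had 55.8, 56.6, 105 and 115 CPM, against 51.1, 87.2, 64.8 and 80.0 CPM. Their groups overlapped. Rpl36al and Rpl39l stayed below 2 CPM in every library. Among the parent genes, Rpl39 had 185, 185, 393 and 389 CPM at 94 dB, against 129, 189, 145 and 168 CPM at 70 dB (adjusted p = 0.0518), and Rps27, Rpl36a, Rpl3 and Rpl7 lay between -0.08 and 0.26 on the log2 scale, none past the threshold.

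Within the members, the change at 94 dB went with coding length and level, as a description across 82 genes that share libraries. Spearman's rho of the log2 fold change was -0.31 with coding length and -0.09 with exon length. With the CPM at 70 dB rho was -0.46, and with GC content 0.19. The 70 dB libraries enter both the fold change and that CPM, so their scatter alone can make this rho negative. Across all genes tested, rho was -0.27 with coding length, -0.26 with exon length, 0.05 with CPM and 0.46 with GC content. Without 94 dB replicates 3 and 4, rho over the members was -0.10 with coding length, -0.40 with CPM and 0.16 with GC content. The 27 members with the shortest coding sequences (138 to 390 bases) had a median of 0.48 with 10 higher. The next 28 had a median of 0.54 with 17 higher, and the 27 longest (588 to 1257 bases) a median of 0.25 with 12 higher. Of all genes tested, 13.9% were higher. Without those replicates the medians were 0.12, 0.32 and 0.13 from the shortest to the longest. With each library corrected by a smooth curve over GC content and over exon length, 33 of 82 members were higher at 94 dB, where 10.2% of all genes were, and the median was 0.34. Of the original 39 calls, 30 were shared. In that fit 2 members were lower, Rps6 (log2 -0.41; adjusted p = 0.00128) and Rpl26 (-0.28; adjusted p = 0.0426), where 5.85% of genes were lower; both were named after the fit was seen, Rpl26 alone for it.

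The second comparison set 105 dB against 70 dB. By edgeR's quasi-likelihood test 5 of the 82 members were higher and 0 lower, where 1.62% of genes passed, 1.11% as higher and 0.508% as lower. The fold change was positive in 81 of 82 members, against 49.3% of all genes, with a median of 0.29 on the log2 scale and a range of -0.06 to 0.62. At an unadjusted p of 0.05, 47 members passed, against 18.7% of genes. In 22 members every 105 dB library lay above every 70 dB library, as in 5.78% of genes, and in 0 below, as in 5.03% of genes. The median member stood 0.20, 0.31, 0.52 and 0.10 above its 70 dB mean on the log2 scale in 105 dB replicates 1 to 4, with 77 to 80 of the 82 members above it in each library. In 70 dB replicate 2, 75 members lay above the mean with a median of 0.11, close to the 77 members and the median of 0.10 in 105 dB replicate 4.

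The 5 genes that passed were Rps19, Rpl37a, Rps10, Rps13 and Rps20. Rps13, a small-subunit protein at the interface, had 214, 227, 265 and 185 CPM at 105 dB, against 155, 174, 162 and 160 CPM at 70 dB (log2 0.45, SE 0.09; adjusted p = 0.0153). Rps19 had 247, 278, 298 and 195 CPM at 105 dB, against 173, 188, 168 and 165 CPM at 70 dB (log2 0.55, SE 0.13; adjusted p = 0.0392). Rpl37a had 292, 340, 381 and 241 CPM at 105 dB, against 214, 231, 204 and 216 CPM at 70 dB (log2 0.54, SE 0.12; adjusted p = 0.0305). In these the 105 dB libraries lay above all 70 dB libraries, with replicate 4 the lowest. Rps20 (log2 0.44; adjusted p = 0.0392) had 351, 378, 434 and 287 CPM at 105 dB, against 277, 287, 246 and 257 CPM at 70 dB, so that 105 dB replicate 4 stood level with 70 dB replicate 2. Rps10, at 6.49, 5.88, 6.21 and 6.30 CPM at 105 dB, against 4.59, 4.22, 4.43 and 4.17 CPM at 70 dB (adjusted p = 0.0270), has the overlap named above, and 3 pseudogene rows hold 42.1% as many counts as its own. At 94 dB against 70 dB, which shares the 70 dB libraries, the log2 fold changes of these genes were 0.95 for Rps19, 0.55 for Rpl37a, 0.84 for Rps10, 0.64 for Rps13 and 0.55 for Rps20. Of the 5 calls, 0 were left without 105 dB replicate 2 or 70 dB replicate 4, 1 without 105 dB replicate 3 or 70 dB replicate 1, 2 without 105 dB replicate 1 or 70 dB replicate 3, and 15 members passed without 105 dB replicate 4. Without 94 dB replicates 3 and 4, 9 were higher, where 1.22% of genes were.

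The third comparison set 105 dB against 94 dB, the louder against the less loud noise. Here 5 of the 82 members were higher at 105 dB and 11 lower, against a background of 17.3% of genes passing, 8.06% as higher and 9.23% as lower; the median log2 fold change was -0.14. Lower were Rpl23a (-1.07), Rpl22l1 (-1.02), Rpl11 (-0.81), Rplp1 (-0.74), Rps16 (-0.66), Rps29 (-0.66), Rps15 (-0.54), Rps9 (-0.52), Rps19 (-0.39), Rpl7a (-0.35) and Rpl13 (-0.33). At 94 dB against 70 dB, a comparison that uses the same 94 dB libraries, these genes lay between 0.54 (Rpl7a) and 1.49 (Rpl22l1). Rpl22l1 had 19.9, 19.9, 18.4 and 14.9 CPM at 105 dB, against 28.9, 33.3, 45.5 and 40.3 CPM at 94 dB (adjusted p = 0.00147). Rps29 had 184, 199, 202 and 135 CPM at 105 dB, against 270, 265, 309 and 292 CPM at 94 dB (adjusted p = 0.00288). In both genes every 105 dB library lay below every 94 dB library. Of the 11, 5 remained without 105 dB replicate 2 or 4 or 94 dB replicate 3 or 4, namely Rpl22l1, Rplp1, Rps16, Rps29 and Rps9, and the other 6 lost their calls (up to 0.137), while 7 members were lower without 105 dB replicate 1 and 20 without 94 dB replicate 1.

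The 5 members that were higher at 105 dB than at 94 dB were Rpl7, Rps6, Rps26, Rps4x and Rpl4, which lay between -0.12 and 0.04 at 94 dB against 70 dB, with the same 94 dB libraries. Rpl7, a large-subunit protein, had 773, 837, 959 and 750 CPM at 105 dB, against 631, 688, 636 and 654 CPM at 94 dB (log2 0.35; adjusted p = 0.00794). Rps6 had 615, 640, 799 and 638 CPM at 105 dB, against 483, 513, 561 and 590 CPM at 94 dB (log2 0.33; adjusted p = 0.0211). The groups did not overlap in either gene. With the curve over GC content and exon length removed, 8 members were higher, where 4.66% of genes were. Rps26, at the mRNA exit, differed by 0.33 (adjusted p = 0.0355), Rps4x, an X-linked small-subunit gene, by 0.28 (0.0274), and Rpl4 by 0.25 (0.0356). Rps6 no longer passed when 105 dB replicate 3 or 94 dB replicate 1 was left out (up to 0.0643). Rps26, Rps4x and Rpl4 lost theirs without 105 dB replicate 2 or 3 or 94 dB replicate 3, Rps4x and Rpl4 also without 94 dB replicate 4, Rps26 and Rpl4 also without 94 dB replicate 1, and Rps26 also without 105 dB replicate 4 or 94 dB replicate 2 (up to 0.122). Without 94 dB replicates 3 and 4, 0 members were higher and 1 was lower, Rpl22l1 (adjusted p = 0.0286), where 0.282% of genes were higher and 0.792% lower, and the median turned to 0.13. In these replicates the median member stood highest at 94 dB, so a shift of the median in that direction was fixed in advance.

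**Figure D4:**
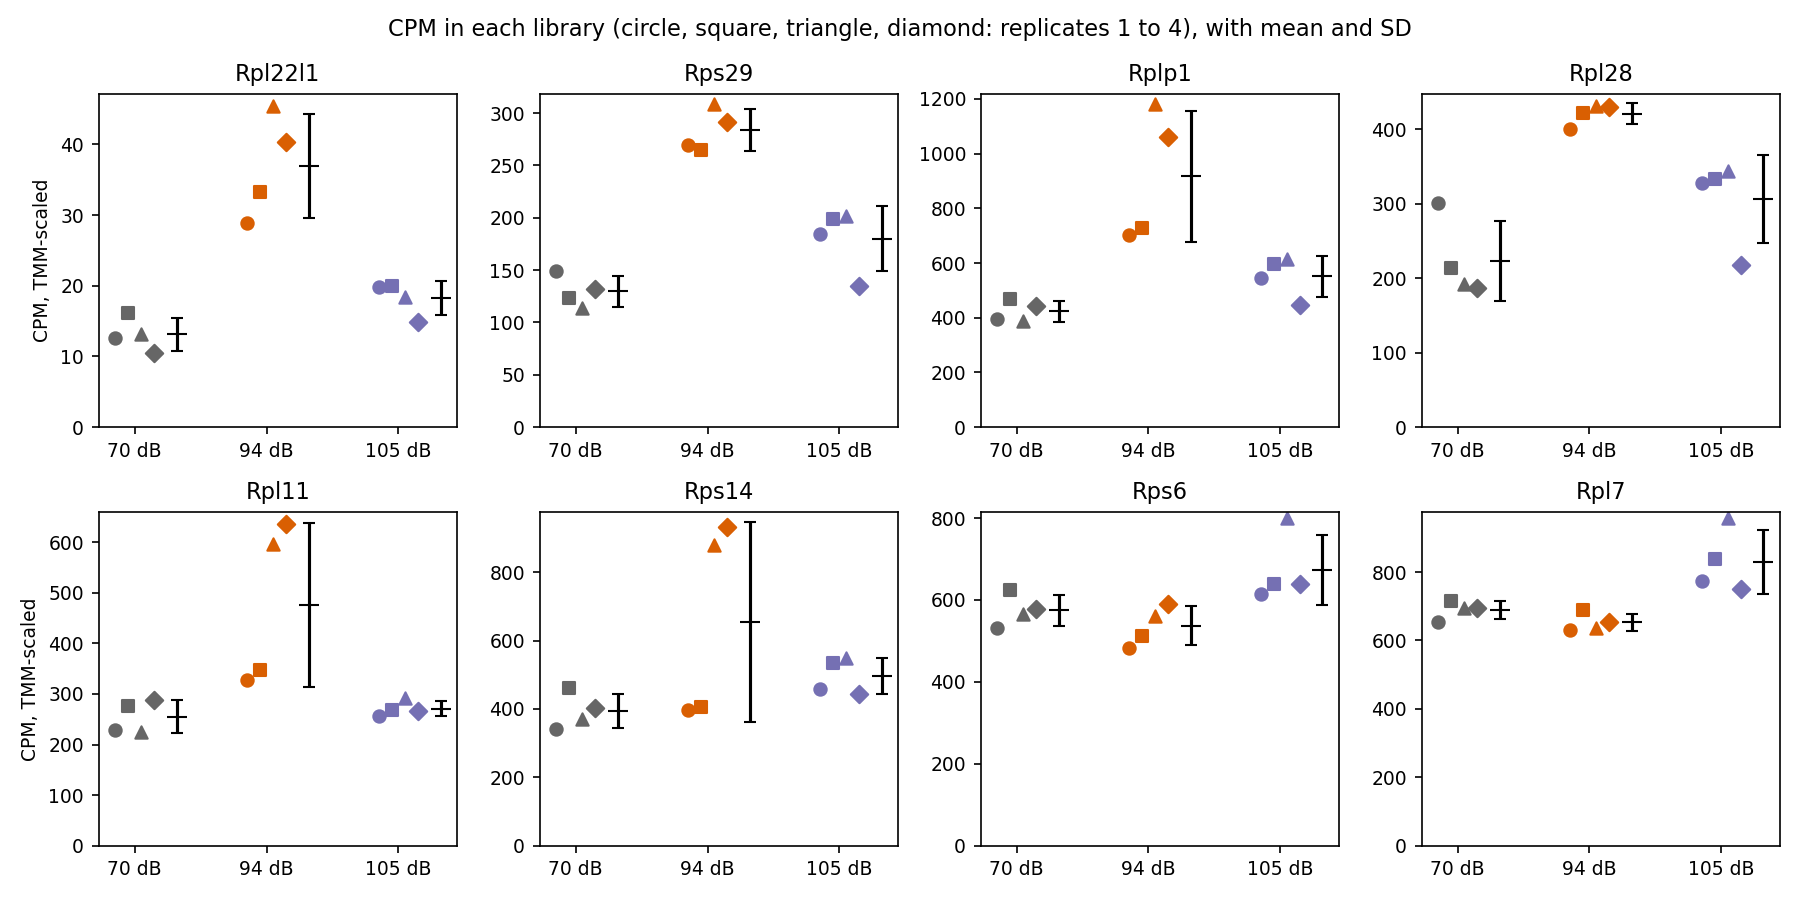
CPM (y axis, TMM-scaled) of 8 members in every library of the 70, 94 and 105 dB groups (x axis), with symbols for replicates 1 to 4 and the mean and SD in black. Rpl22l1, Rps29 and Rpl28 are high in all 4 libraries at 94 dB, Rpl11 and Rps14 mainly in replicates 3 and 4, and Rps6 and Rpl7 are highest at 105 dB.

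Genes that work with the ribosomal proteins were counted in 4 lists. Of the ribosomal proteins outside the naming rule, Fau (log2 0.53; adjusted p = 0.0428) and Rps27a (0.39; adjusted p = 0.0190), small-subunit proteins made as fusions with a ubiquitin-like protein and ubiquitin, were higher at 94 dB than at 70 dB. Neither passed without 94 dB replicates 3 and 4 (adjusted p = 0.454 and 0.278), and neither was called at 105 dB against 70 dB.

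Other mRNAs of the TOP class had 6 of 24 higher and 2 lower at 94 dB than at 70 dB, with a median of 0.10. Of all genes, 13.9% were higher and 12.2% lower. Without 94 dB replicates 3 and 4, 4 of the 24 were higher and 0 lower, where 5.12% of genes were higher and 2.85% lower. Those that rose included the elongation factor subunit Eef1d (0.47), the initiation factor subunit Eif3g (0.50), the RNA-binding protein Ybx1 (0.48) and the ribosome-bound scaffold Rack1 (0.45, lost without those replicates at an adjusted p of 0.437). The poly(A)-binding protein Pabpc1 (-0.36) and the histone chaperone Nap1l1 (-0.23) fell, calls that ended without those replicates (adjusted p = 0.0704 and 0.192). Eef1a1, the main elongation factor, averaged 4066 ± 140 CPM at 94 dB and 4080 ± 143 CPM at 70 dB (SD, n = 4 each; adjusted p = 0.967). At 105 dB against 70 dB, Eef1d (0.33) was the 1 of 24 that was higher, and 0 were lower. Of all genes, 1.11% were higher and 0.508% lower there.

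In the ribosome biogenesis list, 21 of 70 genes were higher and 7 lower at 94 dB than at 70 dB (median 0.12), against 13.9% and 12.2% of all genes. Without 94 dB replicates 3 and 4, 10 of the 70 were higher and 1 lower, against 5.12% and 2.85% of all genes. Rrp9 (0.91) and Imp3 (0.78), of the small-subunit processome, Gar1 (0.69), of the pseudouridylation complex, and Eif6 (0.63), which keeps the subunits apart, rose. The kinases Riok1 (-0.39) and Riok2 (-0.31), which act late in small-subunit maturation, fell, Riok2 not without those replicates (adjusted p = 0.163). At 105 dB against 70 dB 4 of 70 were higher and 0 lower, against 1.11% and 0.508% of all genes. The 4 were the methyltransferase Fbl (0.43) and its partner Nop56 (0.26), the polymerase subunit Polr1d (0.33) and the assembly factor Rrs1 (0.31).

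Of 26 genes of the mTOR pathway and known regulators of these mRNAs, 12 were higher and 3 lower at 94 dB than at 70 dB (median 0.17). The shares of all genes were 13.9% and 12.2%. Without 94 dB replicates 3 and 4, 5 of the 26 were higher and 1 lower, against 5.12% and 2.85% of all genes. Ddit4, a stress-induced inhibitor of mTOR complex 1, had means (± SD, n = 4 each) of 26.3 ± 1.66 CPM for 70 dB, 288 ± 68.8 CPM for 94 dB and 167 ± 16.3 CPM for 105 dB. It differed from 70 dB by 3.45 at 94 dB and 2.66 at 105 dB on the log2 scale (adjusted p = 2.14e-07 and 1.06e-06). Maf1, a repressor of RNA polymerase III, rose at 94 dB (0.57), as did the translational repressor Eif4ebp1 (0.43), while the cap-binding protein Eif4e (-0.26), the S6 kinase Rps6kb1 (-0.28) and the transcription factor gene Mycn (-0.56) fell. Without 94 dB replicates 3 and 4, Eif4ebp1, Eif4e and Rps6kb1 did not pass (adjusted p = 0.174, 0.0876 and 0.293). At 105 dB against 70 dB, Ddit4 and Sesn1 (0.30) were higher and Mycn (-0.68) was lower, where 1.11% of all genes were higher and 0.508% lower. These lists were read from the same fit as the members, and no list was tested as a whole.

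Near-identical copies limit some single values. The table has 199 rows of ribosomal protein pseudogenes with a -ps symbol, which held 0.0394% of all counts. Any copies under other names were not counted, and the treatment of reads with several alignments is not stated. For Rpl34 and Rps2 the -ps copies held 82.7% and 60.7% as many counts as the member. Rps2-ps10 averaged 233 CPM at 94 dB and 150 CPM at 70 dB (log2 0.64; adjusted p = 0.00441), whereas Rps2 differed by 0.18 (adjusted p = 0.418). Rpl34-ps1 differed by 0.60 (adjusted p = 0.0117) and Rpl34 by 0.48 (adjusted p = 0.0593). With the -ps rows added, the summed share of counts (mean ± SD, n = 4 each) was 2.76 ± 0.161% for 70 dB, 3.51 ± 0.512% for 94 dB and 3.29 ± 0.369% for 105 dB. Exons of 18 members overlap a gene on the other strand, and those counts are uncertain if strand was not used.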

How the data were processed

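The deposited table gives raw counts, whole numbers of reads per gene, for 12 libraries. Per the labels' protocols, each library started from total RNA (1 µg) and a TruSeq RNA kit. The submitters' processing notes list CASAVA, STAR and featureCounts 1.5.0-p3, with mm10 as build. No parameters, annotation, strand setting or rule for reads with several alignments were found in the labels or the file header. A symbol in GENCODE M21 (GRCm38) was found for 35474 of 35496 genes, and that annotation also gave positions, lengths and overlaps. Rps4l and Rpl37rt, annotated there as transcribed pseudogenes, and Rps27rt and Rps19bp1 are not members.

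Groups and replicate numbers were read from the sample titles. The count test was edgeR 4.0.16 (R 4.3.3): filterByExpr with a minimum count of 10 (19497 genes, 99.9% of counts), TMM factors, a mean per group over all 12 libraries (9 residual degrees of freedom), glmQLFit with robust dispersions, glmQLFTest, and Benjamini-Hochberg adjustment over all genes tested, with 0.05 as threshold. CPM values are TMM-scaled. The member with the fewest counts, Rpl39l, had 99 over all 12 libraries. The scripts were tested on simulated data. Libraries of the same group correlated at Pearson's r between 0.984 and 0.991 (log2 CPM), and no library was a duplicate.

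Alternatives were DESeq2 1.42.0 and its size factors, upper-quartile factors, other filters on low counts, fits to the 8 libraries compared, a smooth curve over GC content and exon length (mgcv 1.9.3) removed as an offset, a replicate block, a fit without mitochondrially encoded and haemoglobin genes, the longest transcript as length, each library left out, and 94 dB replicates 3 and 4 left out together. The members and lists were chosen with earlier results of these data known. The rule for named genes took the 10 largest rises at 94 dB, up to 10 members that were lower in any comparison, up to 10 past the threshold in each comparison with 105 dB, the 5 highest and 5 lowest levels per exon length, the paralogs with their parents, and 13 members with known roles. Others (Rpl8, Rpl13, Rpl26, Rpl29, Rpl34, Rpl4, Rps2, Rps18, Rps26 and Rps4x) were named after their values were seen. Some genes of the lists are not reported here.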

Additional observations from a re-analysis of the deposited data

Results flagged for a closer look

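Of 141 sets of 4 libraries examined for the named members, 6 held a library far from the other 3 by Dixon's test, where chance flags about 1 in 20. At 105 dB, replicate 4 was low for Rpl28 (218 CPM, others 329 to 344) and for Rps28 (80.8 CPM, others 140 to 145). In the same group, replicate 3 was high for Rplp2 (539.8 CPM, others 322 to 354) and for Rps6 (799 CPM, others 615 to 640). At 70 dB, replicate 1 was high for Rpl23a (137 CPM, others 61.5 to 73.7), and replicate 4 was low for Rpl24 (0.628 CPM, others 1.36 to 1.49). Over all 82 members such a library was found 0 times at 94 dB, 5 times at 105 dB and 2 times at 70 dB.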

How the results depend on the processing

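At 94 dB against 70 dB, the count of higher members stayed within 1.5 times of 39 in all alternatives except the one without 94 dB replicates 3 and 4 (16), and lay between 32 and 54 with each library left out; lower members stayed at 0 except with the GC and length trend removed (2) and with the replicate block and that trend (2). At 105 dB against 70 dB, the 5 higher members became 19 with DESeq2, 13 with no filter on low counts, 13 with the replicate block and trend, and 9 without 94 dB replicates 3 and 4, and lay between 0 and 15 with each library left out, while lower members stayed at 0. At 105 dB against 94 dB, the 5 higher members became 3 with the 8 libraries compared, 8 with the trend removed, 9 with block and trend and 0 without 94 dB replicates 3 and 4 (1 to 6 with each library left out), and the 11 lower became 19 with DESeq2 and 1 without those replicates (5 to 20). The members' median log2 fold change ran from 0.33 to 0.53, 0.19 to 0.36 and -0.23 to -0.035 in the 3 comparisons with each library left out. It turned to 0.13 at 105 dB against 94 dB without 94 dB replicates 3 and 4, the 94 dB libraries with the highest member levels. The cause of these shifts was not tested. The summed share of counts lay between 2.66 and 2.78% at 70 dB, 3.30 and 3.63% at 94 dB and 3.09 and 3.37% at 105 dB with each library left out, and without mitochondrially encoded and haemoglobin genes the share was 2.93% at 70 dB, 3.67% at 94 dB and 3.498% at 105 dB, and the 94 and 70 dB libraries overlapped. The replicate block, by the replicate numbers of the titles, gave 41, 7 and 18 called members in the 3 comparisons, against 39, 5 and 16. Libraries with the same replicate number deviated with correlations of -0.149 to 0.182, and the numbers were not taken as pairs. At 94 dB against 70 dB, replicates 1, 2 and 4 correlated best with their own number (0.026, 0.109 and 0.086). Replicate 3 did not (-0.040). In the comparisons with 105 dB, not every library correlated best with its own number. Titles of 105 dB replicates 3 and 4 also carry the labels C4 and C5. For these the block and the correlations followed the replicate number, so they cannot test pairing by label. With the longest transcript as length, the 70 dB levels became 1.82 for Rpl24, 4.91 for Rps10, 562 for Rps15 and 677 CPM per kb for Rplp0. The order of the highest members changed with it. Over all genes, the 5085 calls at 94 dB against 70 dB became 3127 with the trend removed and 1610 without 94 dB replicates 3 and 4. The 316 at 105 dB against 70 dB became 887 with DESeq2, 523 with no filter, 479 with the replicate block and 735 with block and trend (126 to 399 with each library left out). The 3372 at 105 dB against 94 dB became 1835 with the trend removed, 1956 with block and trend, and 217 without 94 dB replicates 3 and 4 (1650 to 3798 with each library left out).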
